A study of Monascus purpureus with 9 samples.

Results

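The 166 genes described here are the well expressed rows of a Monascus purpureus expression table whose identifiers begin with NewGene_. They were chosen by their level: a mean of at least 5 FPKM (fragments scaled to transcript length and to the size of the library) over all 9 libraries, and not under 0.1 FPKM in all 3 wild-type libraries. The first condition left 166 of the 951 NewGene_ rows and set aside 785, and the second removed 0 of them. The whole table has 9869 rows, the other 8918 of which are named gene_ with a number. It gives no gene name, coordinate, length or sequence for any row. In the gene list supplied for assembly ASM2599979v1, 0 of the 9869 rows matched an entry, gene_ rows included. What the 166 encode is therefore not stated here.

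Monascus purpureus is a filamentous fungus cultivated for its red and yellow azaphilone pigments. The libraries came from mycelium of a Set1 knockout strain, a Swd3 knockout strain and the wild type (WT), each represented by 3 libraries, grown for 2 days in PDB medium. Total RNA was made into libraries with a SMARTER mRNA-seq kit. The labels mention no other allele or treatment, and they do not say whether libraries of a group stem from separate cultures or whether a knockout is more than 1 isolate. A p-value therefore weighs a difference between groups only against the scatter of these libraries, which may be technical. A subunit's loss and the history of its strain cannot be told apart. The study asked what Set1 and Swd3, called MpSet1 and MpSwd3 there, do in the control of pigment formation.

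As background, Set1 is the enzyme of the COMPASS complex that places methyl groups on a lysine near the tip of histone H3, and Swd3 is a WD-repeat protein of the complex's core that is needed for this activity in budding yeast. The mark lies around the start of transcribed genes. In filamentous fungi, loss of COMPASS subunits is known both to lower and to raise expression, with gains among genes that are usually quiet. StringTie, which the submitters' processing notes name, can assemble transcripts that an annotation lacks. Whether the prefix NewGene_ marks such transcripts is not given in the sources used here.

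Summed FPKM per library ran from 705678 to 729434, and sequencing depth is unknown. On the log2(FPKM + 1) scale, libraries of the same group correlated across rows at 0.993 to 0.997. A knockout and a WT library correlated at 0.907 to 0.915, and libraries of the different knockouts at 0.990 to 0.993. These coefficients are across genes, which are not independent replicates. Neither deleted gene could be located by name, so the genotype labels were not checked against the table.

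The 166 rows were of modest level. Their mean over the 9 libraries ran from 5.01 to 333 FPKM, with a median of 8.08 FPKM and quartiles at 5.95 and 13.4 FPKM. The 7147 gene_ rows that pass the same level rule had a median of 23.7 FPKM. Of the 166, 101 averaged 5 to 10 FPKM, 39 averaged 10 to 20, 23 averaged 20 to 100, and 3 were at 100 FPKM or more. At least 1 FPKM was reached in all 9 libraries by 157 of them.

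The limit of 5 FPKM separates rows of nearly equal level. Just inside lay NewGene_214 with a mean of 5.01 FPKM and NewGene_85 with 5.08 FPKM. Just outside lay NewGene_1093 with 4.95 FPKM and NewGene_760 with 4.85 FPKM. The limit acts on a mean to which the knockouts give 6 of 9 libraries. As a result 47 of the 166 averaged under 5 FPKM in WT and were included only through the knockouts, and 12 averaged under 5 FPKM over the 6 knockout libraries and were included through WT. Rows brought in this way had to differ between groups, so every count below describes these 166 rows and supports nothing beyond them. All 3 group means were at 5 FPKM or more for 101 rows.

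Together the 166 rows took a larger share of the summed FPKM in the knockouts. They held 0.409%, 0.397% and 0.415% in the Set1 knockout libraries and 0.430%, 0.417% and 0.449% in the Swd3 knockout libraries, against 0.325%, 0.324% and 0.339% in WT. No knockout library overlapped with WT. The 3 most abundant rows carried most of that gap. Without them the shares were 0.289% to 0.296% in the Set1 knockout and 0.298% to 0.315% in the Swd3 knockout, against 0.266% to 0.269% in WT. The level rule favours rows that are high in the knockouts, so these shares are a description.

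NewGene_245 was the most abundant, at rank 339 of the table. It had 339, 332 and 397 FPKM in the Set1 knockout and 351, 401 and 537 FPKM in the Swd3 knockout, against 216, 197 and 227 FPKM in WT. All 6 knockout libraries lay above all WT libraries, and Swd3 replicate 3 was the highest. Its log2 fold change was 0.73 in the Set1 knockout (SE 0.12, limma adjusted p = 8.37e-05) and 0.99 in the Swd3 knockout (SE 0.12, limma adjusted p = 5.41e-06).

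NewGene_659 showed a large and very even gain. Its FPKM values were 249, 248 and 251 in the Set1 knockout and 249, 254 and 243 in the Swd3 knockout, against 43.9 to 45.8 in WT. The ratio of means to WT was 5.55 in the Set1 knockout and 5.53 in the Swd3 knockout, with log2 fold changes of 2.45 and 2.44 (SE 0.04 each, limma adjusted p = 3.43e-14 and 4.6e-14). A difference between the knockouts was not detectable, and the 95% interval of the Swd3 minus Set1 difference ran from -0.10 to 0.09 log2 units.

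NewGene_806, the second most abundant, was not settled by the data. It stood at 229, 211 and 232 FPKM in the Set1 knockout and at 212, 190 and 225 FPKM in the Swd3 knockout, against 159, 156 and 231 FPKM in WT. WT replicate 3 lay among the knockout libraries. The log2 fold change was 0.32 in the Set1 knockout (limma adjusted p = 0.0247) and 0.22 in the Swd3 knockout (limma adjusted p = 0.102). Significance in the Set1 knockout was lost when WT replicate 1, WT replicate 2, Set1 replicate 1 or Set1 replicate 3 was left out, with limma adjusted p = 0.111, 0.103, 0.0583 and 0.0727. Without WT replicate 3 the values were 0.50 in the Set1 knockout and 0.41 in the Swd3 knockout, and both passed.

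**Figure D1:**
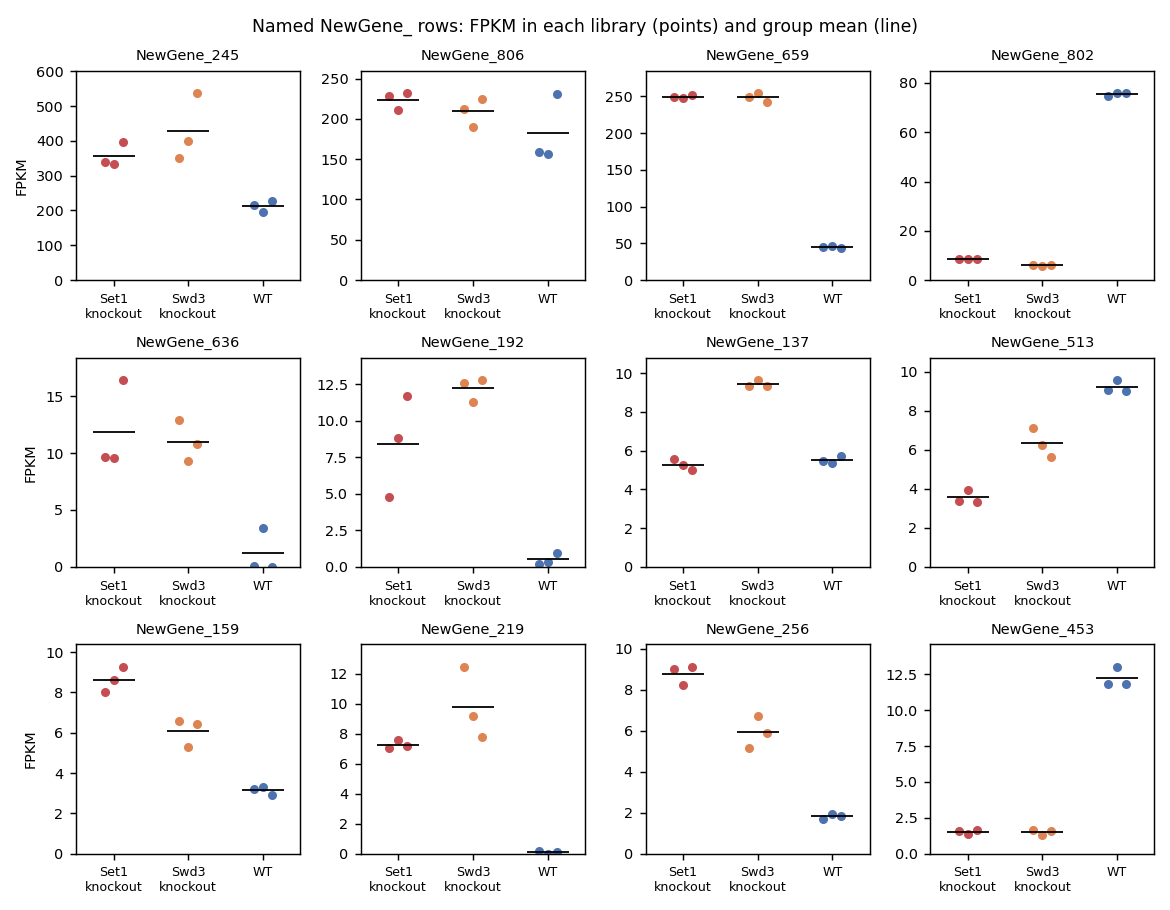
FPKM of the 12 rows named by rule, 1 panel each, with points for the 3 libraries of the Set1 knockout, the Swd3 knockout and WT and a line at each group mean. NewGene_659 stands near 249 FPKM in both knockouts and near 44.9 FPKM in WT, NewGene_802 shows the reverse, and 1 WT library of NewGene_806 lies among the knockout libraries.

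In the Set1 knockout more of the 166 rows rose than fell. The 47 rows that met the level limit only through the knockouts are included in these counts. Relative to WT, 83 rows rose (50%), 44 fell (26.5%) and 39 did not pass (limma, adjusted p under 0.05 over all 9153 rows tested). Over all rows tested, 37.8% rose and 43.3% fell, and over the 7147 gene_ rows of the same level rule 31.4% rose and 51.2% fell. The median log2 fold change of the 166 was 0.29, beside -0.06 for all rows tested. It was -0.21 for tested gene_ rows averaging at least 5 FPKM, whatever their WT level. Fold limits here apply to FPKM + 1, which understates the change where levels are low. NewGene_256, with a ratio of mean FPKM of 4.81, is thus not counted as 4-fold. At least 2-fold, 45 rows rose (27.1%, beside 15.5% of all tested) and 15 fell (9.04%, beside 9.84%). At least 4-fold, 12 rose (7.23%, beside 4.01%) and 3 fell (1.81%, beside 0.907%). Values of the Set1 knockout and WT did not overlap for 130 rows (78.3%), 85 higher and 45 lower, beside 82.4% of all rows tested.

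The Swd3 knockout gave similar counts, measured against the same WT libraries. Here 86 rows rose (51.8%, beside 38.2% of all tested), 42 fell (25.3%, beside 42.5%) and 38 did not pass. Among the gene_ rows of the same level rule 31.4% rose and 50.4% fell. The median log2 fold change was 0.30 for the 166 and -0.05 for all rows tested. It was -0.20 for tested gene_ rows averaging at least 5 FPKM, whatever their WT level. At least 2-fold in FPKM + 1, 47 rows rose (28.3%, beside 16.3%) and 13 fell (7.83%, beside 9.25%). At least 4-fold on that scale, 12 rose (7.23%, beside 4.26%) and 2 fell (1.2%, beside 0.94%). Values did not overlap with WT for 128 rows (77.1%, beside 80.3%).

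The level rule bears on these counts. Of the 47 rows that averaged under 5 FPKM in WT, 44 rose in the Set1 knockout and 45 in the Swd3 knockout, and 0 fell in either. Among the other 119 rows, 39 rose and 44 fell in the Set1 knockout, and 41 rose and 42 fell in the Swd3 knockout. This part keeps rows let in through WT and drops those let in through the knockouts, so the split itself bears on its balance. Its shares of rises and falls were 32.8% and 37.0% in the Set1 knockout, beside 26.1% and 55.4% of the 6610 matching gene_ rows. In the Swd3 knockout they were 34.5% and 35.3%, beside 26.1% and 54.5%. Of the 101 rows with all 3 group means at 5 FPKM or more, 39 rose and 29 fell in the Set1 knockout, and 41 rose and 28 fell in the Swd3 knockout.

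Gene_ rows divided in the same way had more falls than rises except where WT was low. With a WT mean under 5 FPKM, 96.1% of 537 gene_ rows rose in the Set1 knockout and 97.0% in the Swd3 knockout. With all 3 group means at 5 FPKM or more, 27.2% of 6359 rose and 54.0% fell in the Set1 knockout, beside 38.6% and 28.7% of the 101 NewGene_ rows. In the Swd3 knockout 27.1% of these gene_ rows rose and 53.1% fell, beside 40.6% and 27.7%. The division was made after the values were seen, and none of these differences between NewGene_ and gene_ rows was tested. The balance over all rows tested also turned with the scaling. After scaling by the median of ratios 3809 rows were higher and 3625 lower in the Set1 knockout, and 3800 higher and 3602 lower in the Swd3 knockout, with 90 and 36 of the 166 rows in the Set1 knockout and 96 and 33 in the Swd3 knockout.

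**Figure D2:**
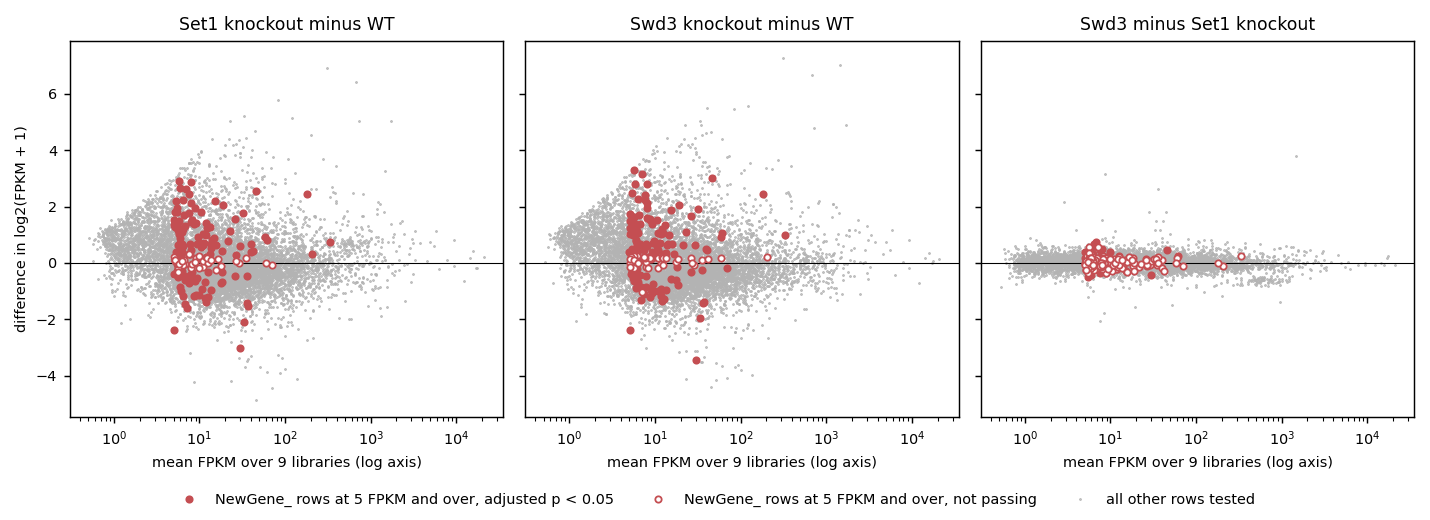
Difference in log2(FPKM + 1) against mean FPKM over the 9 libraries (log axis) for the Set1 knockout minus WT, the Swd3 knockout minus WT and the Swd3 minus the Set1 knockout. Red points are the 166 NewGene_ rows, filled where the adjusted p was under 0.05, and grey points are all other rows tested; the red points spread from -3.02 to 2.92 in the first panel but from -0.50 to 0.74 in the third.

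Under 100 FPKM, the shares of rises and falls differed little between levels among the 166 rows, but the level rule bears on this. Of the 47 rows that averaged under 5 FPKM in WT, 44 rose in the Set1 knockout and 45 in the Swd3 knockout. Except for NewGene_668 and NewGene_1212, all of these 47 rows lay at 5 to 10 FPKM. The shares of that class therefore lean towards rises through the choice of rows. At 5 to 10 FPKM, 48.5% rose and 27.7% fell in the Set1 knockout, beside 37.8% and 42.9% of the gene_ rows in that range. At 10 to 20 FPKM, 48.7% rose and 25.6% fell, beside 26.4% and 54.99%. At 20 to 100 FPKM, 12 of 23 rose and 6 fell, beside 27.8% and 55.4% of the gene_ rows. The 3 rows at 100 FPKM and over all passed upwards in the Set1 knockout, and 2 of them in the Swd3 knockout, with the reservation on NewGene_806 given above. In the Swd3 knockout the 3 lower classes had 54.5%, 48.7% and 43.5% rising and 24.8%, 25.6% and 30.4% falling. In these 3 classes the NewGene_ rows had larger shares of rises and smaller shares of falls than gene_ rows chosen by the same rule. This difference was not tested. At 5 to 10 FPKM it includes the rows let in only through the knockouts, which had to be higher there. Gene_ rows let in the same way were not counted by class, so the comparison in that class supports nothing about NewGene_ rows.

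**Figure D3:**
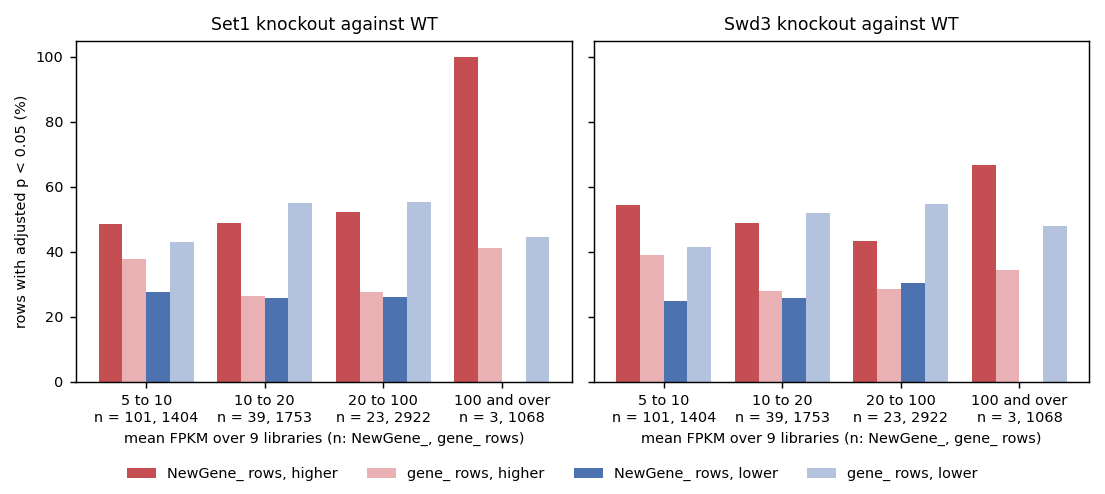
Percentage of rows with an adjusted p under 0.05 in each knockout against WT, by mean FPKM over the 9 libraries. Dark bars are the 166 NewGene_ rows and pale bars gene_ rows chosen by the same level rule. Red is for higher and blue for lower in the knockout. The highest class holds 3 NewGene_ rows. The lowest class holds nearly all NewGene_ rows that met the level limit only through the knockouts, which bears on its shares.

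Both knockouts were set against the same WT libraries. The same call, or none, was given in both for 143 of the 166 rows (86.1%), close to the 87.7% of all rows tested. Both knockouts were higher than WT for 77 rows (46.4%, beside 34.9% of all tested) and lower for 39 rows (23.5%, beside 39.7%). Of the 47 rows that met the level limit only through the knockouts, 44 rose in the Set1 knockout and 45 in the Swd3 knockout. The level rule therefore bears on these shares and on the sizes of the rises given below. No row was called in opposite directions by limma. The log2 fold changes of the 77 rows ran from 0.33 to 2.92 in the Set1 knockout, with a median near 1.2, and from 0.30 to 3.28 in the Swd3 knockout, with a median of 1.07. Those of the 39 rows ran from -3.02 to -0.26 with a median of -0.70 in the Set1 knockout and from -3.46 to -0.16 with a median of -0.85 in the Swd3 knockout.

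**Figure D4:**
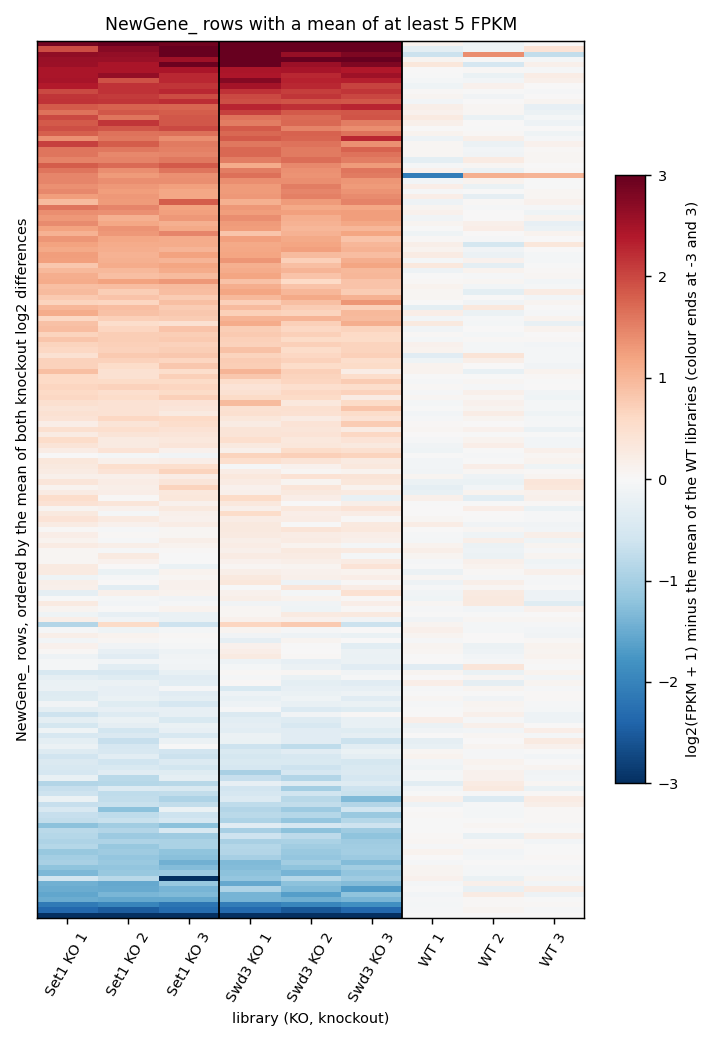
The 166 NewGene_ rows (1 per line) in the 9 libraries (columns), coloured by log2(FPKM + 1) minus the mean of the WT libraries, red for higher and blue for lower. Lines are ordered by the mean of both knockout differences from WT, highest at the top; single cells that stand out from their neighbours belong to rows such as NewGene_403 and NewGene_635.

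On the log2(FPKM + 1) scale without further scaling, the largest gain was that of NewGene_219. It had 7.03, 7.60 and 7.17 FPKM in the Set1 knockout and 12.5, 9.18 and 7.80 FPKM in the Swd3 knockout, against 0.181 and 0.104 FPKM in WT replicates 1 and 3, while WT replicate 2 was listed at 0. It was thus near 0 in all WT libraries and above 7 FPKM in all knockout libraries. It rose by 2.92 in the Set1 knockout (SE 0.14, limma adjusted p = 6.87e-10) and by 3.28 in the Swd3 knockout (SE 0.14, limma adjusted p = 2.15e-10). With a WT level this low the size of the change follows the pseudocount, and with 0.1 in place of 1 the values were 5.36 and 5.76. After quantile normalization its gain in the Set1 knockout was 2.28, less than the 2.64 of NewGene_178, 2.59 of NewGene_659 and 2.40 of NewGene_636. In the Swd3 knockout it was then 2.67, less than the 3.08 of NewGene_178.

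NewGene_192 came next in the Swd3 knockout on the same scale. Its values were 4.75, 8.82 and 11.7 FPKM in the Set1 knockout and 12.6, 11.3 and 12.8 FPKM in the Swd3 knockout, against 0.211, 0.340 and 0.966 FPKM in WT. The Set1 knockout libraries spread widely but stayed above WT. Its log2 fold change was 3.16 in the Swd3 knockout (SE 0.24, limma adjusted p = 5.09e-08), and 4.55 with a pseudocount of 0.1.

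WT averages under 1 FPKM occurred in 4 of the 166 rows. Besides NewGene_219 and NewGene_192 these were NewGene_205 and NewGene_440, singled out after their values were seen. NewGene_205 had 7.41, 6.78 and 9.94 FPKM in the Set1 knockout and 10.9, 7.47 and 8.89 FPKM in the Swd3 knockout, against 0.589 FPKM in WT replicate 3 and 0.8 FPKM in WT replicate 1, with WT replicate 2 listed at 0. NewGene_440 averaged 6.90 ± 1.53 FPKM in the Set1 knockout and 8.42 ± 1.70 FPKM in the Swd3 knockout, against 0.694 ± 0.158 FPKM in WT (SD, n = 3 each). Both rose in both knockouts. All 4 had WT means so low that the level limit was reached through the knockouts.

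A gain at a higher level was that of NewGene_178, also singled out after its values were seen. It stood at 55.3, 55.5 and 53.8 FPKM in the Set1 knockout and at 78.4, 73.8 and 73.4 FPKM in the Swd3 knockout, against 8.95, 8.38 and 7.99 FPKM in WT. The 3 groups did not overlap. The ratio of means to WT was 6.50 in the Set1 knockout and 8.91 in the Swd3 knockout, and the knockouts differed from each other by 0.45 log2 units (SE 0.06, limma adjusted p = 0.000244).

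On the same scale the deepest fall in both knockouts was that of NewGene_802. It had 8.39, 8.40 and 8.41 FPKM in the Set1 knockout and 6.17, 5.54 and 6.16 FPKM in the Swd3 knockout, against 74.6, 75.8 and 75.8 FPKM in WT. The groups were far apart, and both knockouts kept a small part of the WT level, with ratios of means of 0.111 for the Set1 knockout and 0.079 for the Swd3 knockout. Its log2 fold change was -3.02 in the Set1 knockout (SE 0.07, limma adjusted p = 3.84e-13) and -3.46 in the Swd3 knockout (SE 0.07, limma adjusted p = 1.13e-13).

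NewGene_453 followed at a lower level. It had 1.57, 1.34 and 1.66 FPKM in the Set1 knockout and 1.65, 1.28 and 1.60 FPKM in the Swd3 knockout, against 11.8, 13.0 and 11.8 FPKM in WT. The knockouts overlapped with each other and lay far under WT, and its place among the 166 rests on the WT libraries. It fell by 2.39 log2 units in the Set1 knockout and by 2.40 in the Swd3 knockout (SE 0.11 each, limma adjusted p = 3.31e-10 and 3.26e-10).

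In total 27 of the 166 rows passed in neither knockout (16.3%, beside 13.1% of all tested). For 24 of them the 95% intervals of both log2(FPKM + 1) differences from WT lay within 1.5-fold. NewGene_1151 had the narrowest bounds, at most 0.23 log2 units from 0 in either knockout, and averaged 27.7 FPKM in Set1 knockout libraries and 26.2 FPKM in Swd3 knockout libraries, against 26.5 FPKM in WT. It was singled out after its values were seen. The intervals of the other 3, NewGene_648, NewGene_510 and NewGene_1078, reached past 1.5-fold, so for these a change of that size was not detectable rather than absent.

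Another 23 rows (13.9%) passed in 1 knockout only, beside 11.9% of all tested. In the Set1 knockout alone 6 rose and 5 fell, and in the Swd3 knockout alone 9 rose and 3 fell. Passing in 1 knockout is no difference between knockouts, and in the direct comparison 4 of these 23 rows differed. They include NewGene_137, at 5.57, 5.25 and 5.03 FPKM in the Set1 knockout and 9.36, 9.65 and 9.35 FPKM in the Swd3 knockout, against 5.46, 5.35 and 5.74 FPKM in WT. The Swd3 libraries stood above all others, and the Set1 and WT libraries overlapped. The Swd3 minus Set1 difference was 0.74 log2 units (SE 0.09, limma adjusted p = 6.73e-05), the largest on that scale among the 166 rows, and the 95% interval of the Set1 minus WT difference ran from -0.24 to 0.13.

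The direct comparison of the knockouts found few differences. Of the 166 rows 10 were higher (6.02%, beside 6.66% of all tested) and 6 lower (3.61%, beside 6.15%) in the Swd3 than in the Set1 knockout, and 150 did not pass. None of the 16 differed 2-fold, their absolute log2 differences running from 0.24 to 0.74. Values of the knockouts did not overlap for 39 rows (23.5%, beside 28.3% of all tested). The 16 rows comprised 7 that were higher than WT in both knockouts, 5 that were lower in both and 4 that passed against WT in 1 knockout. The split of 10 higher and 6 lower followed the scaling, with 13 and 4 after scaling libraries to 1 common sum, 9 and 10 after scaling by the median of ratios, and 10 and 11 after quantile normalization. The count was 7 without Set1 replicate 3 and 9 without Swd3 replicate 2.

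NewGene_513 fell in both knockouts, less in the Swd3 knockout. It had 3.37, 3.95 and 3.34 FPKM in the Set1 knockout and 7.11, 6.24 and 5.63 FPKM in the Swd3 knockout, against 9.05, 9.57 and 9.01 FPKM in WT. The 3 groups were fully separate. The Swd3 minus Set1 difference was 0.68 log2 units (SE 0.10, limma adjusted p = 0.000617).

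NewGene_256 and NewGene_159 rose in both knockouts and were lower in the Swd3 than in the Set1 knockout. Both averaged under 5 FPKM in WT and met the level limit only through the knockouts. NewGene_256 had 5.16, 6.71 and 5.89 FPKM in the Swd3 knockout and 9.01, 8.23 and 9.11 FPKM in the Set1 knockout, and averaged 1.82 ± 0.106 FPKM in WT (SD, n = 3). Its difference was -0.50 log2 units (SE 0.11, limma adjusted p = 0.00696). NewGene_159 had 6.59, 5.28 and 6.45 FPKM in the Swd3 knockout and 8.02, 8.61 and 9.27 FPKM in the Set1 knockout, and averaged 3.15 ± 0.194 FPKM in WT (SD, n = 3). Its difference was -0.44 log2 units (SE 0.11, limma adjusted p = 0.0139), but it did not pass without Set1 replicate 3 (limma adjusted p = 0.0737) or without Swd3 replicate 2 (limma adjusted p = 0.0767).

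By the median, replicates of the 166 rows scattered about as much as those of gene_ rows at the same level under 100 FPKM. The pooled SD within groups had a median of 0.15 log2 units at 5 to 10 FPKM, beside 0.13 for gene_ rows. At 10 to 20 FPKM both medians were 0.11, and at 20 to 100 FPKM they were 0.10 and 0.09. For the 3 rows at 100 FPKM and over the median was 0.20, beside 0.06 for gene_ rows. An SD over 0.5 was found for 4 of the 166 rows (2.41%) and for 14 of the 7147 gene_ rows (0.196%). These 2 shares are not matched for level. All 4 rows averaged 5 to 10 FPKM, a class that holds 101 of the 166 rows but 1404 of the 7147 gene_ rows. The 4 were NewGene_403, NewGene_635, NewGene_636 and NewGene_648, described next because their values depend on single libraries. This choice and the comparison of scatter were made after seeing the values and were not tested.

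NewGene_403 was listed at 0 in WT replicate 1 alone. It had 10.7, 9.26 and 9.98 FPKM in the Set1 knockout and 12.2, 9.69 and 11.5 FPKM in the Swd3 knockout, against 7.78 and 7.56 FPKM in WT replicates 2 and 3. Its log2 fold change was 1.38 in the Set1 knockout (limma adjusted p = 0.0453) and 1.52 in the Swd3 knockout (limma adjusted p = 0.0297), both passing. Without WT replicate 1 the changes were 0.34 and 0.48, so most of their size came from that 0, which can be a failed estimate. Both calls held without that library and were lost when any single library of the knockout concerned was left out.

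NewGene_648 moved between about 2 and 10 FPKM within each knockout. It had 2.38, 8.25 and 3.11 FPKM in the Set1 knockout and 8.83, 9.71 and 3.00 FPKM in the Swd3 knockout, against an even 5.66, 5.01 and 5.15 FPKM in WT. Neither knockout passed against WT.

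NewGene_635 and NewGene_636 carry neighbouring numbers and differed in opposite directions in single libraries. NewGene_635 had 7.38, 6.03 and 0.201 FPKM in the Set1 knockout and 4.62, 5.95 and 4.94 FPKM in the Swd3 knockout, against 12.6, 9.79 and 12.2 FPKM in WT. NewGene_636 had 9.67, 9.57 and 16.4 FPKM in the Set1 knockout and 12.9, 9.30 and 10.8 FPKM in the Swd3 knockout, against 0.086, 3.43 and 0.012 FPKM in WT. In Set1 replicate 3 the first was near 0 and the second at its highest, and in WT replicate 2 the first was at its WT low and the second at its WT high. Their simple sum was more even, at 17.1, 15.6 and 16.6 FPKM in the Set1 knockout and 17.5, 15.2 and 15.7 FPKM in the Swd3 knockout, against 12.7, 13.2 and 12.2 FPKM in WT.

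NewGene_636 rose by 2.89 log2 units in the Set1 knockout (SE 0.43, limma adjusted p = 3.02e-05), the second largest gain there on that scale, and by 2.81 in the Swd3 knockout. With a pseudocount of 0.1 the Set1 value was 4.79. NewGene_636 averaged 1.18 FPKM in WT, so it reached the level limit through the knockouts. NewGene_635 averaged under 5 FPKM over the 6 knockout libraries, so it reached the limit through WT. The level rule thus bears on both directions of this pair. NewGene_635 fell by 1.59 in the Set1 knockout (SE 0.51, limma adjusted p = 0.0116), and by 0.70 without Set1 replicate 3. In the Swd3 knockout its value of -1.02 did not pass in the fit of all 9 libraries (limma adjusted p = 0.0823), although its values did not overlap with WT. It passed there with the replicate block and in a fit of the Swd3 and WT libraries alone, with limma adjusted p = 0.0429 and 1.41e-05.

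**Figure D5:**
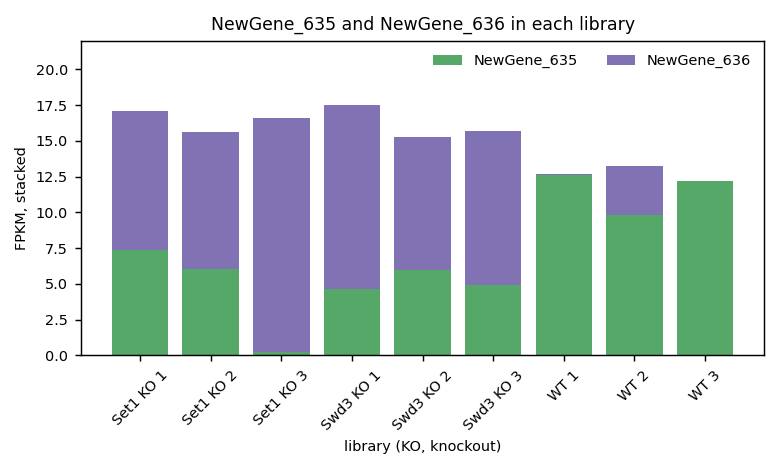
FPKM of NewGene_635 (green) and NewGene_636 (purple), stacked, in each library of the Set1 knockout, the Swd3 knockout and WT. The stacks reach 15.2 to 17.5 FPKM in the knockouts and 12.2 to 13.2 FPKM in WT, while the division between the rows changes most in Set1 replicate 3 and WT replicate 2.

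Neighbouring numbers did not mean like responses in general. The NewGene_ numbers run from 1 to 1216, and 52 of the 166 rows have another of the 166 beside them, in 29 pairs. In the Set1 knockout 11 of these pairs passed in the same direction (10 upwards, 1 downwards) and 7 in opposite directions, while in 11 at least 1 row did not pass. The shares of 37.9% and 24.1% stand beside 31.7% and 26.7% of the 13666 other pairs. In the Swd3 knockout 10 pairs passed in the same direction and 5 in opposite ones, or 34.5% and 17.2%, beside 33.0% and 26.4%. Deviations from the group means of the paired rows correlated at -0.44 over the 9 libraries for NewGene_635 and NewGene_636. Under -0.5 lay 6 of the 29 pairs (20.7%), beside 12.7% of the other pairs. Over 0.5 lay 2 of the 29 (6.90%), beside 14.8%. These correlations take no account of the size of the deviations, and the difference in shares was not tested. What the numbers stand for is not given in the sources used here.

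A clear opposite pair was NewGene_368 and NewGene_369. NewGene_368 had 22.6, 21.8 and 21.8 FPKM in the Set1 knockout and 24.2, 23.6 and 24.7 FPKM in the Swd3 knockout, against 64.0, 67.3 and 64.8 FPKM in WT. NewGene_369 had 16.0, 14.6 and 17.5 FPKM in the Set1 knockout and 16.7, 14.6 and 14.8 FPKM in the Swd3 knockout, against 10.4, 9.71 and 8.84 FPKM in WT. The first fell by 1.52 and 1.40 log2 units in the Set1 and Swd3 knockouts (SE 0.06 each) and the second rose by 0.68 and 0.62 (SE 0.09 each), with limma adjusted p of at most 2.95e-05. Both were singled out after their values were seen.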

How the data were processed

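The authors deposited 1 table of FPKM values with a column per library, each matched to a sample by its title; 0 columns were unmapped. The tools named are FastQC, HISAT2 and StringTie, per the submitters' processing notes; their versions, the settings, genome build, annotation and strand use are not stated there or in the labels. No steps of whole reads were seen (the ratios of 70 rows under 0.15 FPKM in WT replicates 1 and 2 spread over 31 bins of 0.1 log2 units, the fullest holding 8.57%), so no counts were recovered, and 0 rows had identical values above 0 in any of the 36 pairs of libraries.

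Rows with at least 1 FPKM in at least 3 libraries (9153, among them all 166 described) entered 1 linear model of log2(FPKM + 1) over the 9 libraries in limma 3.58.1 (R 4.3.3), with an intensity trend and no replicate block. P-values are two-sided and Benjamini-Hochberg adjusted over the rows tested, with a threshold of 0.05. Fold changes are differences of log2(FPKM + 1) and understate the change where levels are low. The fit was also run on simulated data in which only a small part of the rows changed. Many more rows passed here, so that run does not show how well the calls hold in these data.

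The 166 rows, the classes used and the tests were chosen with earlier results of these data known. Named were, per comparison, at most 2 rows higher and 2 lower with the largest log2 change among those passing without overlap, and the 3 most abundant; others are marked as chosen afterwards. No gene list could be used, because no row has a name. Alternatives changed the pseudocount, filter, scaling, groups fitted, replicate block, variance moderation and libraries.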

Additional observations from a re-analysis of the deposited data

Results flagged for a closer look

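The Swd3 and Set1 knockouts differed from each other, by the direct limma comparison, for 16 of the 166 rows, 5 of which are named by rule. The Swd3 minus Set1 difference was 0.74 log2 units for NewGene_137, 0.68 for NewGene_513, -0.50 for NewGene_256, -0.44 for NewGene_159 and -0.44 for NewGene_802. The first 4 were chosen for this difference, so the values restate the choice.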

How the results depend on the processing

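Both comparisons with WT kept their counts within 1.5 times under every alternative tried. Of the 83 rows higher in the Set1 knockout 79 kept their call with each replicate left out in turn, as did 33 of the 44 lower ones, and in the Swd3 knockout 80 of 86 and 34 of 42. In the direct comparison 4 of the 10 higher and 2 of the 6 lower rows kept it. Its 6 lower rows became 10 with the median of ratios and 11 with quantile normalization, and with replicates left out its total ran from 7 to 16, its higher rows from 5 to 9 and its lower rows from 2 to 7. Adding the replicate block gave 86 higher and 44 lower rows in the Set1 knockout, 88 and 42 in the Swd3 knockout, and 12 and 9 between knockouts. It was not the main design, since the labels name no shared batch and deviations correlated above 0.1 in 4 of 9 pairs sharing a number (range -0.13 to 0.30). Among named rows it changed the calls of NewGene_635 and NewGene_806 in the Swd3 knockout, which then passed (log2 change of NewGene_806 0.22, limma adjusted p = 0.0195). No named value reversed its sign. Of the alternative values for named rows, 271 kept their side of the threshold while 12 lost and 5 gained a call; with a replicate left out, 179 kept it, 12 lost and 1 gained a call. The exceptions were NewGene_806, NewGene_403, NewGene_635 and NewGene_159. For NewGene_403 in the Set1 knockout limma adjusted p ran from 0.00784 without WT replicate 2 to 0.172 with robust moderation. For those calls the cause was not tested. Depth is unknown, so values near 0 carry no detection limit.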
